A study of Mus musculus with 12 samples.

Results

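RNA of cardiomyocytes isolated from adult mouse hearts was compared between mice that had lost Med30 in heart muscle cells 4 weeks earlier and their controls. The members are the 6 adult samples of the 12 in the series, 3 Ctrl and 3 icKO, and the genes with a mean level above 1 RPKM over these 6 samples, which were 9517 of the 20775 listed. RPKM are read counts divided by gene length and library size. All mice are given as C57BL/6, were 3 months old and carried Med30 f/f alleles, in which exon 1 of Med30 is flanked by loxP sites. The icKO mice also carried αMHC-MerCreMer, a Cre recombinase that is driven by the promoter of the cardiac myosin gene Myh6 and becomes active in heart muscle cells with tamoxifen. The Ctrl mice lacked the Cre, although the sample labels call them wild type, and both groups are labelled as 4 weeks after tamoxifen. Tamoxifen was given at 40 mg per kg and day for 3 days, beginning at 8 weeks of age. The floxed line came from targeted embryonic stem cells of another strain, bred with C57BL/6 mice, and the number of backcrosses is not stated. No sample carried the Cre without the floxed alleles, so an effect of the Cre on RNA cannot be told apart from the loss of Med30. The cells were freed from the heart by perfusion with collagenase, and ribosomal RNA was depleted from total RNA, while the source label reads only heart. Depth, estimated from the low values, was 11.97 to 17.53 M reads a sample. The labels do not say whether each sample came from its own animal, so the p values measure the spread between these samples.

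Mediator is a large protein complex that carries signals from DNA-bound activators to RNA polymerase II at the promoter, and MED30 is a subunit of its core that is found in animals but not in yeast. Adult cardiomyocytes beat without rest. They depend on ion channels that shape the action potential, on calcium that cycles through the sarcoplasmic reticulum, on densely packed sarcomeres and on mitochondria that burn mainly fatty acids. In failing hearts, cardiomyocytes commonly lose part of this adult program and turn on natriuretic peptides and cytoskeletal genes.

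Med30 itself lies on GRCm38, the genome build of these data, at chromosome 15, 52712408 to 52730564, plus strand. The Ctrl samples had 7.66, 7.45 and 7.66 RPKM of it and the icKO samples 3.81, 3.16 and 1.82, here and below in the order of their replicate numbers. Every icKO sample lay below every Ctrl sample, and the icKO replicates differed more among themselves than the Ctrl replicates did. This was a change of −1.40 on the log2 scale (SE 0.23, adjusted p from limma = 0.000403), and of −1.96 after the scaling described next. The RPKM cover the whole gene, so a transcript that lacks exon 1 would still be counted.

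The comparison was made in a pair of ways, because the RPKM of most genes were higher in icKO. Over all 9517 genes the log2 change had a median of 0.57 in the RPKM as deposited and 0.01 after median-ratio scaling, which sets the typical gene equal between samples. A gene was called higher or lower only where, in both, limma's adjusted p was below 0.05 and the log2 change exceeded 1 in size. By this rule 804 genes were lower in icKO (8.45% of those tested) and 1053 were higher (11.1%). "Fell" and "rose" below refer to these calls, and paired log2 changes give the value as deposited first and the scaled value second. They were computed on log2(RPKM + 0.1), which understates the changes of genes near 0. Of the 1857 called genes, 1849 had groups that did not overlap on either scale. Among all genes tested, 18.9% were lower and 62.0% higher without overlap as deposited, and 36.9% and 36.4% after scaling. The calls beyond a log2 change of 2 comprised 289 lower and 541 higher genes, and those beyond 4 comprised 28 and 62. The scaling divides each sample by its own constant, which shifts most log2 changes by a like amount. Calls in opposite directions could therefore hardly occur, and none did. For the same reason the 804 lower calls are those made as deposited, and the 1053 higher calls are those made after scaling.

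**Figure D1:**
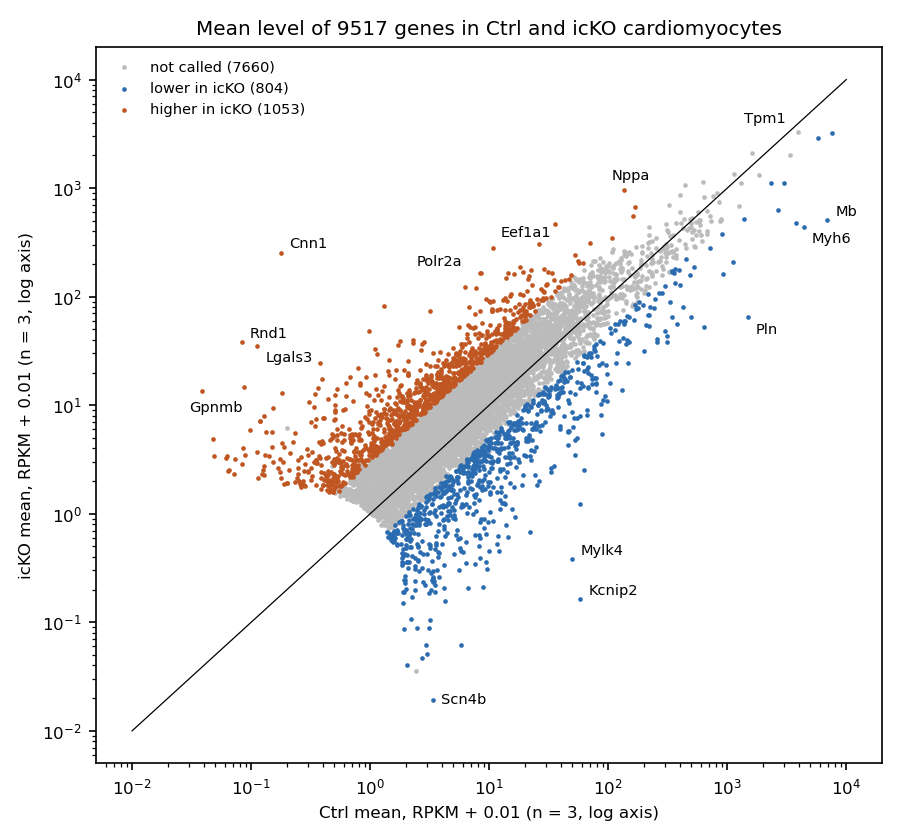
Mean level of each tested gene in Ctrl (x axis) and icKO (y axis) cardiomyocytes, in RPKM + 0.01 on log axes, each the mean of 3 samples. The line marks equal levels. Kcnip2, Mylk4 and Scn4b lie far below the line and Cnn1, Rnd1, Lgals3 and Gpnmb far above it, while abundant muscle genes such as Mb, Myh6 and Pln lie below it.

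The defining markers of heart muscle cells were present in all 6 samples, and their sum was lower in icKO. Summed over 11 cardiomyocyte markers, the level was 29290 to 30840 RPKM in Ctrl and 12400 to 15950 in icKO. Of the 11, 6 were called lower and 5 were not called. Higher in icKO as deposited, though not called, were Actn2 (log2 changes as deposited and after scaling of 0.86 and 0.29), Nkx2-5 (0.74 and 0.18) and Tnnc1, which had the opposite sign after scaling (0.37 and −0.19). Markers of 11 genes each for fibroblasts and endothelial cells came to 9.14 to 12.1 and 13.2 to 36.4 RPKM in Ctrl, and to 43.3 to 69.8 and 35.04 to 65.9 in icKO. Macrophage markers (10 genes) summed to 3.35 to 5.94 RPKM in Ctrl and 8.47 to 11.9 in icKO, and mural cell markers (8 genes) to 6.62 to 18.0 and 21.4 to 39.9. The remaining leukocyte markers (8 genes) stayed at or below 0.163 RPKM in Ctrl and 0.984 in icKO. Of the other markers that an isolation could pick up, epicardial genes (6 genes) summed to 0.802 to 2.96 and 1.66 to 3.90 RPKM, and glial and adipocyte genes (6 genes) to 0.203 to 0.564 and 0.121 to 0.164. Erythroid markers (8 genes) set Ctrl replicate 1 apart, at 1.16 RPKM against 32.5 and 34.7 in the other Ctrl samples and 10.9 to 43.0 in icKO. Skeletal muscle markers (9 genes, some shared with the heart) summed to 986 to 1100 RPKM and 527 to 749, and Pvalb alone of all these markers was listed at 0 in every sample. In such bulk samples, fewer cells of a type and less RNA per cell cannot be told apart.

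**Figure D2:**
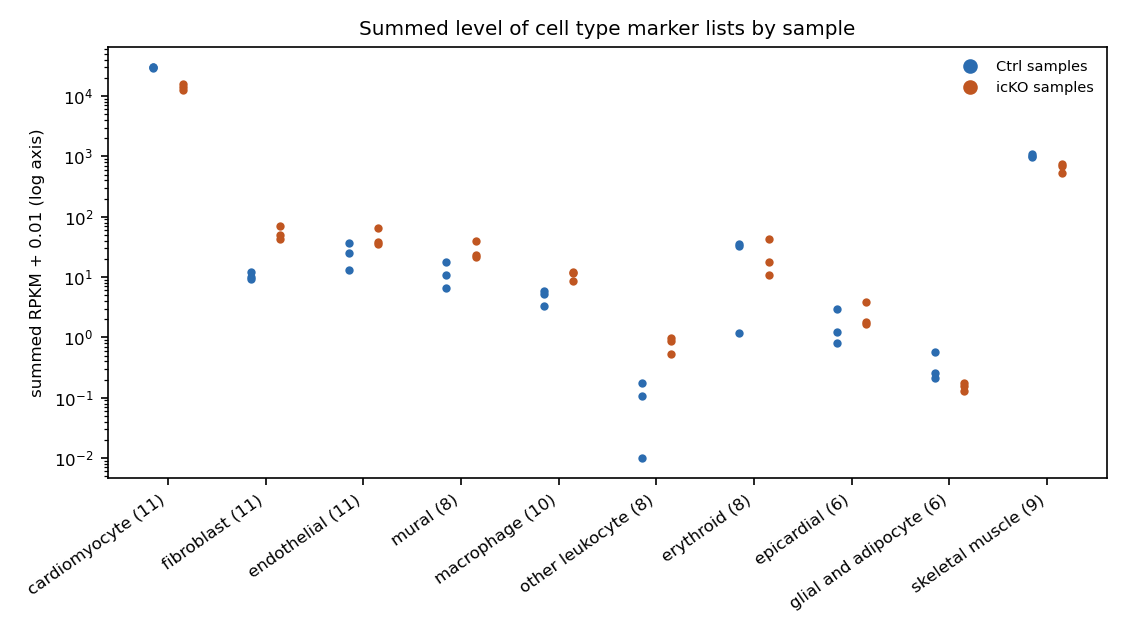
Summed level of each list of cell type markers in the 3 Ctrl and the 3 icKO samples, in RPKM + 0.01 on a log axis, with the number of genes in brackets. The cardiomyocyte sum is lower in every icKO sample than in every Ctrl sample, the fibroblast, mural, macrophage and leukocyte sums are higher, and the endothelial, erythroid and epicardial ranges overlap.

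Genes were then read by function, in lists that cover the working parts of the cardiomyocyte and its responses to stress. Over all lists, 144 different members fell and 138 rose. Each count below is to be read beside the 8.45% of all genes that fell and the 11.1% that rose. The lists were chosen with earlier results of these data known, so their shares are descriptions and not tests. Ion channel, fatty acid and calcium handling genes held the largest shares that fell, and actin cytoskeleton and matrix genes the largest shares that rose. The part of the lower cardiomyocyte marker sum in these falls was not tested.

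**Figure D3:**
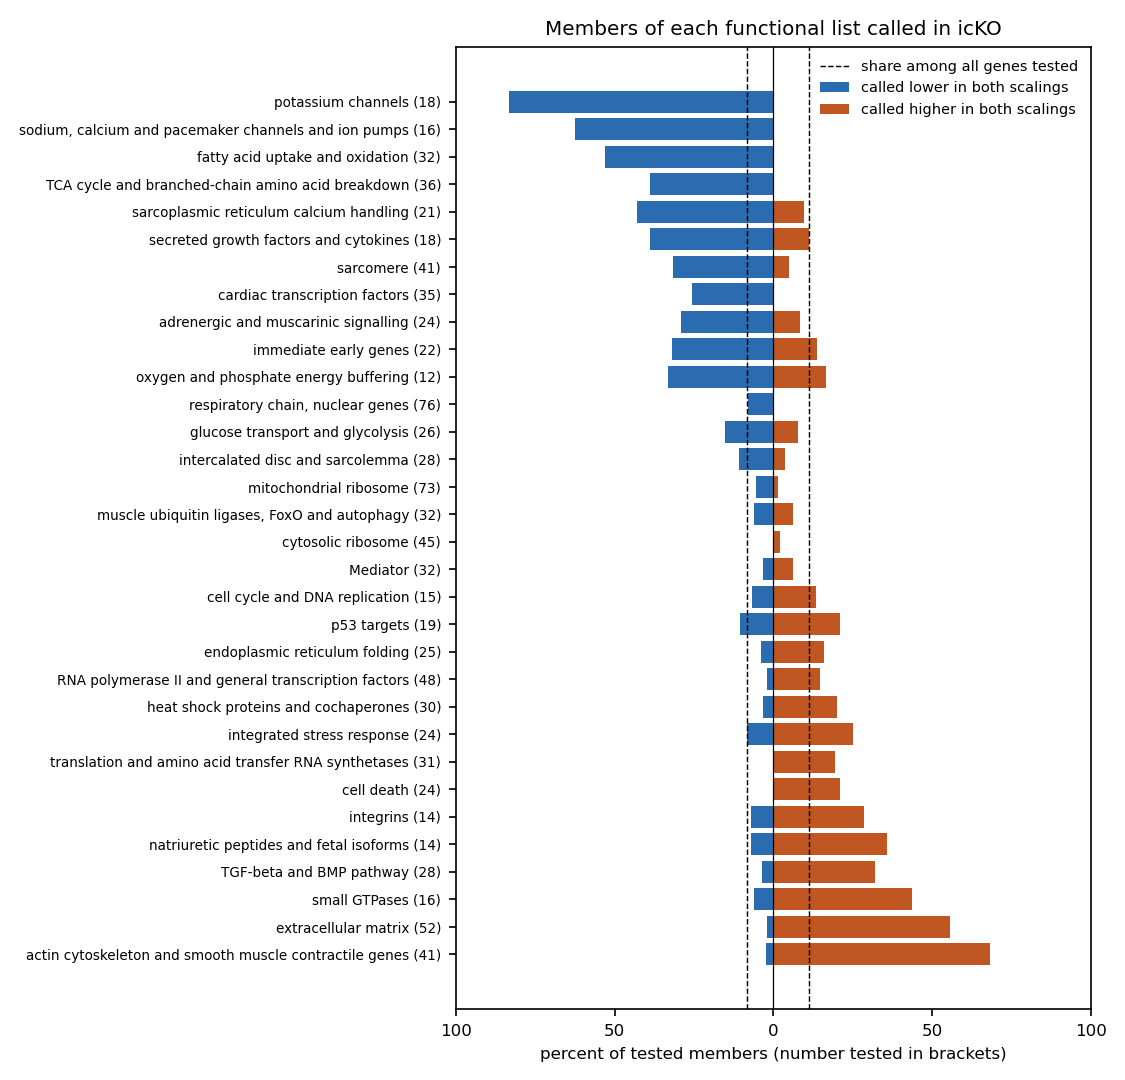
Share of the tested members of each functional list that were called lower (left) or higher (right) in icKO under both scalings, with the number tested in brackets. Dashed lines mark the shares among all 9517 genes, 8.45% lower and 11.1% higher. The bars reach furthest left for potassium channels and furthest right for the actin cytoskeleton.

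Potassium channels repolarize the cardiomyocyte after each beat, and 15 of the 18 tested fell while none rose. The largest change was in Kcnip2 (chromosome 19, 45791839 to 45816061, minus strand), the KChIP2 subunit that the transient outward current needs. Its RPKM was 53.3, 68.4 and 53.4 in the Ctrl samples and 0.147, 0.268 and 0.042 in the icKO samples. This was a change of −7.95 as deposited (SE 0.30, adjusted p from limma = 1.93e-07) and −8.39 after scaling. The icKO values lay around the level that 3 reads give, at most 0.152 RPKM for this gene. Its partner Kcnd2, a pore subunit of the same current, fell from 8.63 to 1.79 RPKM. The channels of the delayed rectifier currents, Kcnh2 (22.6 to 3.88 RPKM), Kcnq1 (12.5 to 4.48 RPKM) and the accessory subunit Kcne1 (1.86 to 0.38 RPKM), all fell. Among inward rectifiers, Kcnj2, which holds the resting potential, had 17.5, 16.1 and 16.5 RPKM in Ctrl and 3.20, 3.99 and 4.50 in icKO. The groups were wide apart, with a log2 change of −2.08 (SE 0.13). The ATP-sensitive channel lost transcript for its pore subunit Kcnj11 (log2 changes of −2.63 and −3.19) and for its sulfonylurea receptors Abcc9 (55.1 to 4.97 RPKM) and Abcc8 (8.63 to 3.53 RPKM). Both subunit genes of the acetylcholine-gated channel fell, Kcnj3 (16.2 to 1.75 RPKM) and Kcnj5 (13.6 to 1.22 RPKM). Kcnk3, a background channel with the highest Ctrl level of the list, fell from 79.4 to 17.9 RPKM. Together the listed potassium channel genes took 0.162% ± 0.0103 (SD, n = 3) of the summed RPKM in Ctrl and 0.0317% ± 0.00557 in icKO. The median of their log2 changes was −2.12 and −2.68.

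The genes for inward currents followed. Of 16 tested sodium, calcium and pacemaker channels and ion pumps, 10 fell and none rose. Scn4b, a sodium channel beta subunit (chromosome 9, 45138395 to 45154152, plus strand), had 4.55, 4.41 and 1.05 RPKM in Ctrl and 0, 0.028 and 0 in icKO. All Ctrl samples lay above all icKO samples, but Ctrl replicate 3 was well below the other Ctrl samples, and 2 of the icKO values were 0. Cacna1c, the L-type channel that brings in the calcium for each beat, fell from 38.3 to 12.8 RPKM and its beta subunit Cacnb2 from 15.2 to 6.35 RPKM. The T-type channel Cacna1g and the pacemaker channels Hcn4 and Hcn2 had log2 changes of −2.95 and −3.44, −3.30 and −3.77 and −1.51 and −2.06. The summed share of this list was 0.405% ± 0.0223 in Ctrl and 0.442% ± 0.0142 in icKO although 10 of its members fell.

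**Figure D4:**
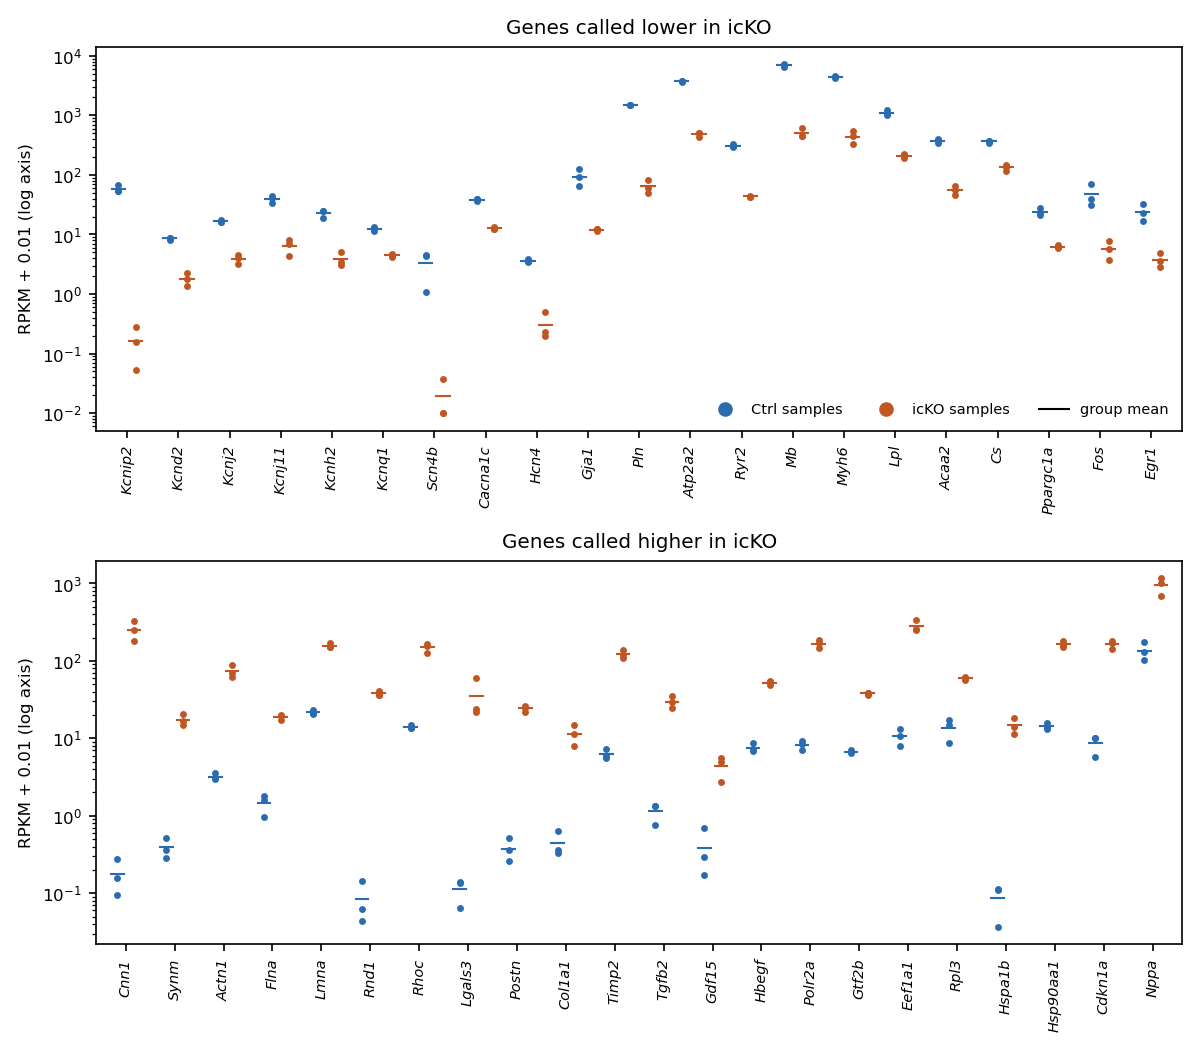
Level of selected called genes in each of the 3 Ctrl and 3 icKO samples, in RPKM + 0.01 on a log axis, with group means as short lines. Upper panel, genes that fell, from channel subunits to the immediate early genes Fos and Egr1. Lower panel, genes that rose, from cytoskeletal genes to Nppa. The groups do not overlap in any gene shown, which holds for 1849 of the 1857 called genes from which these were chosen.

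Calcium cycling genes of the sarcoplasmic reticulum fell in 9 of 21 cases and rose in 2. Pln encodes phospholamban, the inhibitor of the calcium pump. Its RPKM was 1486, 1472 and 1494 in Ctrl and 50.3, 59.9 and 82.8 in icKO, and it moved from rank 13 of all genes to rank 636. The pump itself, Atp2a2 (SERCA2), had 3842, 3798 and 3705 RPKM in Ctrl and 502, 498 and 437 in icKO. The release channel Ryr2 had 325, 312 and 299 RPKM in Ctrl and 43.1, 45.1 and 42.7 in icKO. For these 3 genes the replicates of a group lay close together, and the log2 changes were −4.56, −2.98 and −2.84 (SEs 0.16, 0.08 and 0.07). Hrc, a calcium-binding protein of the lumen, fell from 332 to 89.9 RPKM, and Rrad, a small GTPase that restrains the L-type channel, from 87.4 to 8.03 RPKM. The luminal buffer Casq2 was at 309.7 ± 19.1 RPKM (SD, n = 3) in Ctrl and 414 ± 8.14 in icKO and was not called, with a sign that depended on the scaling (0.42 and −0.14). Bin1, which shapes T-tubules, rose from 0.112 to 2.29 RPKM. The list as a whole went from 3.26% ± 0.0116 (SD, n = 3) of the summed RPKM in Ctrl to 0.935% ± 0.0210 in icKO.

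Cell contacts came next. Of 28 tested genes of the intercalated disc and sarcolemma, 3 fell (10.7%) and 1 rose (3.57%), beside 8.45% and 11.1% of all genes. Gja1, encoding the main ventricular gap junction protein connexin 43, had 64.2, 91.1 and 124 RPKM in Ctrl and 11.4, 12.4 and 12.5 in icKO. It was the largest change of the list (−2.89 and −3.45). The desmosomal cadherin Dsc2 fell from 11.2 to 4.03 RPKM, Gja3 from 5.40 to 2.15 RPKM, and Pkp4 rose from 17.02 to 51.1 RPKM, a call that was lost without any of Ctrl replicate 1, Ctrl replicate 3 or icKO replicate 1. In adrenergic and muscarinic signalling, 7 of 24 genes fell and 2 rose. The receptor Adra1a fell from 16.5 to 0.921 RPKM, the regulator Rgs2 from 13.6 to 2.18 RPKM and the adenylyl cyclase Adcy6 from 40.2 to 13.3 RPKM. The inhibitory G protein genes Gnai2 (from 35.7 to 112 RPKM) and Gnai3 (from 1.39 to 4.45 RPKM) rose, but Gnai2 lost its call without Ctrl replicate 1, and Gnai3 with a pseudocount of 1.

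Sarcomere genes fell in 13 of 41 cases and rose in 2. Mylk4, a muscle kinase gene (chromosome 13, 32700834 to 32783954, minus strand), had 51.4, 61.3 and 36.7 RPKM in Ctrl and 0.241, 0.349 and 0.532 in icKO, a log2 change of −6.73 (SE 0.25, adjusted p from limma = 1.86e-07). Myh6, the adult myosin heavy chain, had 4522, 4389 and 4232 RPKM in Ctrl and 336, 446 and 538 in icKO. Its near copy Myh7, the fetal isoform, fell from 29.3 to 6.99 RPKM, with the limit that reads shared by such similar genes can be split wrongly. The troponin gene Tnni3 fell from 2694 to 628 RPKM, Tcap from 918 to 162 RPKM and Myom2 from 297 to 48.7 RPKM. The light chain genes Myl2 (−1.23 and −1.79) and Myl3 (−1.45 and −2.01) and the actin gene Actc1 (−1.02 and −1.59) also fell under both scalings, but with quantile normalization, which forces one distribution on all samples, they had −0.05, −0.25 and 0.07 and were not called, nor were they without a filter on low genes. The call of Actc1 was also lost without Ctrl replicate 1, Ctrl replicate 3 or icKO replicate 1. Tpm1, the gene with the highest mean in icKO, was at 3842, 4121 and 3884 RPKM in Ctrl and 3226, 3579 and 3110.4 in icKO, without a call, and its log2 changes of −0.26 and −0.82 turned to 0.73 with quantile normalization. The 2 members that rose, Myl4 (1.36 to 10.1 RPKM) and Tpm2 (0.494 to 8.65 RPKM), encode an atrial light chain and a tropomyosin of slow and smooth muscle. Sarcomere genes took 17.4% ± 0.363 (SD, n = 3) of the summed RPKM in Ctrl and 9.27% ± 0.839 in icKO.

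The 20 most abundant Ctrl genes took 25.0% ± 0.344 (SD, n = 3) of the summed RPKM in Ctrl and 10.3% ± 0.802 in icKO. The genes were chosen for their Ctrl level, which favours a fall, so no test is given for this difference. Chosen by their icKO level instead, the 20 most abundant genes took 16.8% ± 0.290 in Ctrl and 12.3% ± 0.777 in icKO, and 11 genes were in both sets. Of the 20 chosen in Ctrl, 13 fell and none rose. Mb, encoding the oxygen store myoglobin, went from rank 2 to rank 33, with 6981, 6543 and 7176 RPKM in Ctrl and 455, 613 and 459 in icKO. Des, encoding the intermediate filament desmin, entered the first 20 at 440.4 ± 20.2 RPKM (SD, n = 3) in Ctrl and 1077 ± 108 in icKO. Its log2 changes were 1.29 and 0.72, so it was not called.

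Fuel pathways were read next. Of 32 tested genes of fatty acid uptake and oxidation, 17 fell, none rose and 15 were not called. Lpl, the lipase that frees fatty acids for the heart, had 1230.3, 1088 and 1004 RPKM in Ctrl and 190.1, 215 and 225 in icKO. The uptake and transport genes Fabp3 (1384 to 524 RPKM), Slc27a1 (37.9 to 14.4 RPKM) and Acsl1 (244 to 79.3 RPKM) fell. Fabp3 binds and Acsl1 activates fatty acids inside the cell, and Fabp3 lost its call with quantile normalization (−0.93). Within the mitochondrion, the oxidation enzymes Acadm (399 to 127 RPKM), Hadh (220.4 to 53.3 RPKM), Acaa2 (376 to 55.7 RPKM) and Cpt2 (78.00 to 31.5 RPKM) fell. Ces1d, a carboxylesterase that acts on lipids (chromosome 8, 93166068 to 93197838, minus strand), had 67.00, 67.00 and 39.2 RPKM in Ctrl and 0.725, 1.25 and 1.66 in icKO, the third largest fall of all genes tested. Of 36 genes of the TCA cycle and branched-chain amino acid breakdown, 14 fell, none rose and 22 were not called. Those that fell included citrate synthase Cs (from 366 to 133 RPKM), Idh2 (717 to 283 RPKM) and Ogdh (356 to 166 RPKM), and the amino acid enzymes Mccc2 (21.01 to 4.74 RPKM) and Bckdhb (24.8 to 6.66 RPKM). The 2 lists together moved from 3.50% and 2.91% of the summed RPKM in Ctrl to 1.46% and 1.74% in icKO.

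Of 76 tested nuclear genes of the respiratory chain, 6 fell (7.9%), close to the 8.45% of all genes. None rose, where 11.1% of all genes did. The 6 were Ndufs7 (268 to 109 RPKM), Ndufs8 (172 to 77.6 RPKM), Ndufs1 (217 to 106 RPKM), Ndufb10 (364 to 180.0 RPKM), Sdhb (391 to 177 RPKM) and Uqcrc1 (452 to 223 RPKM), from complexes I, II and III. The call of Ndufb10 was lost without Ctrl replicate 3 or icKO replicate 1 and with sample weights. That of Uqcrc1 was lost without Ctrl replicate 2 or icKO replicate 1. Neither gene was called with quantile normalization, where Ndufb10 had −0.855 and Uqcrc1 −0.799. The list's median log2 change was −0.25 as deposited and −0.82 after scaling, below the medians of all genes in both. After scaling alone, 24 of the 76 were called lower, where 15.9% of all genes were. Mitochondrial ribosome genes gave 4 falls (5.48%) and 1 rise (1.37%) among 73, both below the shares of all genes. In the oxygen and energy buffering list of 12 genes, Mb, the creatine kinase Ckm (from 901 to 379.9 RPKM), the adenylate kinase Ak1 (from 209.6 to 55.3 RPKM) and the nucleotide carrier Slc25a4 (from 2342 to 1104 RPKM) fell. With quantile normalization the log2 changes of Ckm and Slc25a4 were −0.94 and −0.11 and neither was called, and the call of Slc25a4 was also lost without a filter on low genes. The non-muscle creatine kinase Ckb rose from 6.30 to 30.8 RPKM, and the creatine transporter Slc6a8 from 43.4 to 143 RPKM. Of 26 glycolytic genes, 4 fell (15.4%) and 2 rose (7.69%), near the 8.45% and 11.1% of all genes. The muscle phosphofructokinase Pfkm fell from 283 to 109 RPKM and the insulin-responsive transporter Slc2a4 from 135 to 58.7 RPKM, whereas the platelet isoform Pfkp rose from 9.90 to 92.1 RPKM and the lactate exporter Slc16a3 had 0.158, 0.428 and 0.468 RPKM in Ctrl and 19.8, 11.9 and 11.2 in icKO.

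Cardiac transcription factors fell in 9 of 35 cases, and none rose. Those that steer fat oxidation and mitochondria stood among them. Ppargc1a had 21.2, 22.7 and 27.4 RPKM in Ctrl and 6.26, 5.96 and 6.53 in icKO. Ppargc1b fell from 12.3 to 1.10 RPKM, Ppara from 16.3 to 3.32 RPKM and Rxrg from 22.8 to 4.78 RPKM. Of the developmental factors, Tbx5 fell from 8.17 to 2.51 RPKM, Hopx from 117 to 30.5 RPKM and Irx3 from 12.2 to 3.96 RPKM. The core factor Nkx2-5 was not called, at 23.5 ± 3.19 RPKM (SD, n = 3) in Ctrl and 39.1 ± 2.44 in icKO.

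The transcription machinery itself was read in 2 lists. Of the 32 other Mediator genes tested, 1 fell (3.1%) and 2 rose (6.25%), both below the 8.45% and 11.1% of all genes. Med16 fell from 9.61 to 4.71 RPKM, a call that was lost without Ctrl replicate 2 or icKO replicate 1. Med14, the backbone subunit, rose from 5.70 to 19.8 RPKM and Med15 from 3.57 to 16.03 RPKM. Of 48 RNA polymerase II and general factor genes, 7 rose (14.6%) and 1 fell (2.08%), beside 11.1% and 8.45% of all genes. Polr2a, encoding the largest polymerase subunit (chromosome 11), had 8.46, 9.25 and 7.13 RPKM in Ctrl and 183, 169.8 and 146 in icKO. These groups lay more than an order of magnitude apart, at 4.32 and 3.75 on the log2 scale (adjusted p from limma = 8.11e-08 and 3.17e-07). The initiation factor genes Gtf2b (6.71 to 38.01 RPKM), Gtf2f1 (5.41 to 25.5 RPKM) and Gtf2a1 (3.63 to 15.6 RPKM) rose as well, as did the pause factor genes Hexim1 (3.23 to 18.3 RPKM), Cdk9 (1.89 to 6.07 RPKM) and Nelfe (3.69 to 12.5 RPKM). Ccnh fell from 7.62 to 3.40 RPKM. With a pseudocount of 1, Cdk9 and Ccnh lost their calls.

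Protein synthesis genes were read next. Of 45 cytosolic ribosome genes, 1 rose (2.22%) and none fell, beside 11.1% and 8.45% of all genes. Their median log2 change was 0.71 as deposited and 0.15 after scaling. Their share of the summed RPKM was 1.39% ± 0.0148 (SD, n = 3) in Ctrl and 2.21% ± 0.0218 in icKO. The gene that rose was Rpl3, with 8.65, 14.7 and 17.3 RPKM in Ctrl and 56.9, 61.6 and 60.4 in icKO. Rpl3l, its muscle-restricted relative, which was looked up after the values of the list were seen, had 139.5, 119 and 134 RPKM in Ctrl and 11.5, 15.6 and 14.5 in icKO. The order of the 2 genes was thus opposite in the groups, with Rpl3l above Rpl3 in every Ctrl sample and below it in every icKO sample. Among 31 translation factor and transfer RNA synthetase genes, 6 rose (19.4%) and none fell, with a median log2 change of 1.08 and 0.51. The largest rise was that of the elongation factor gene Eef1a1, with 7.87, 10.8 and 13.4 RPKM in Ctrl and 341, 249 and 259 in icKO. Eef1a1 has many pseudogenes that could take or give reads. Its muscle paralog Eef1a2 was at 429 ± 10.3 RPKM (SD, n = 3) in Ctrl and 522 ± 16.2 in icKO and was not called, with a sign that depended on the scaling (0.28 and −0.28). The synthetase genes Nars (16.6 to 62.2 RPKM), Hars (9.52 to 31.6 RPKM) and Cars (3.42 to 14.7 RPKM) rose.

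Actin cytoskeleton and smooth muscle contractile genes rose in 28 of 41 cases and fell in 1. The largest rise of all genes was in Cnn1, encoding calponin 1 of smooth muscle (chromosome 9, 22099216 to 22109630, plus strand). Its RPKM was 0.267, 0.086 and 0.148 in Ctrl and 330.1, 179.7 and 253 in icKO, a change of 9.91 on the log2 scale (SE 0.27, adjusted p from limma = 8.11e-08) as deposited and 9.45 after scaling. Cnn2 rose from 7.58 to 45.6 RPKM. Actin crosslinkers rose, with Actn1 at 3.51, 3.06 and 2.96 RPKM in Ctrl and 87.5, 62.2 and 70.3 in icKO, Actn4 (5.68 to 31.7 RPKM), Flna (1.44 to 18.8 RPKM) and Flnc (70.3 to 312 RPKM). So did the focal adhesion genes Zyx (8.31 to 73.9 RPKM) and Tln1 (13.6 to 75.9 RPKM), the membrane linker Msn (18.2 to 187 RPKM), the nonmuscle myosins Myh9 (2.40 to 15.9 RPKM) and Myh10 (3.16 to 23.02 RPKM), and the nuclear lamina gene Lmna (21.7 to 156 RPKM). The intermediate filament genes Vim (3.76 to 17.6 RPKM), Nes (0.362 to 4.62 RPKM) and Synm (0.38 to 17.4 RPKM) rose too. The tubulin genes Tuba1a (0.621 to 12.1 RPKM), Tubb2a (2.06 to 19.1 RPKM) and Tubb6 (6.46 to 41.8 RPKM) rose, with the limit that tubulin copies are alike. The member that fell, Actg1 (−1.04 and −1.59), is a near copy of other actins, and its call was lost without Ctrl replicate 2 or icKO replicate 3. Of the smooth muscle markers, Acta2 was at 48.96, 63.5 and 31.9 RPKM in Ctrl and 27.6, 37.02 and 42.7 in icKO and was not called, and Myh11, below the level tested, was at 0.391, 0.276 and 0.34 and 1.20, 0.653 and 0.621. Of the 8 mural cell markers, 3 reached the level tested, and 1 of these rose while 2 were not called. The marker that rose was Cspg4, with 1.537, 1.492 and 1.539 RPKM in Ctrl and 6.293, 9.022 and 6.935 in icKO. The part of mural cells in the rises was not tested. The median of the tested list was 2.21 and 1.65, and its share of the summed RPKM was 0.4998% ± 0.0342 (SD, n = 3) in Ctrl and 1.53% ± 0.0982 in icKO.

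Small GTPases, which govern actin and calcium channels, rose in 7 of 16 cases and fell in 1. Rnd1 (chromosome 15, 98663421 to 98677461, minus strand) had 0.034, 0.052 and 0.134 RPKM in Ctrl and 41.2, 36.2 and 36.5 in icKO. All icKO values were close to each other, and the log2 changes were 7.82 and 7.42. Its relative Rnd3 rose from 3.64 to 23.2 RPKM and Rhoc from 13.9 to 149.6 RPKM. Within the RGK family the directions were opposite, with Gem rising from 0.105 to 2.13 RPKM and Rrad falling as given above.

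The bases before the start of some of these genes are shown because the CArG box, the motif of serum response factor that many actin and myosin genes carry, occurred in genes that rose and in genes that fell. The sequences are the 250 bases before the gene start in RefSeq (GRCm38.p6), written 5′ to 3′ on the gene's strand, with capitals for each match of the CArG box, the TATA motif TATAAA, the AP-1 motif TGANTCA or the TEAD motif GGAATG on either strand. Cnn2, Myl9 and Rnd3 rose.
Cnn2 promoter, chr10:79988350-79988599, plus strand: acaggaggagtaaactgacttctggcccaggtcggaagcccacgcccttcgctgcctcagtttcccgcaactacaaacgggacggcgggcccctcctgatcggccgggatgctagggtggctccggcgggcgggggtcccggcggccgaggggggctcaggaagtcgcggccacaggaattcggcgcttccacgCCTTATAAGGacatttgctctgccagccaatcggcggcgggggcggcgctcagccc
Myl9 promoter, chr2:156775214-156775463, plus strand: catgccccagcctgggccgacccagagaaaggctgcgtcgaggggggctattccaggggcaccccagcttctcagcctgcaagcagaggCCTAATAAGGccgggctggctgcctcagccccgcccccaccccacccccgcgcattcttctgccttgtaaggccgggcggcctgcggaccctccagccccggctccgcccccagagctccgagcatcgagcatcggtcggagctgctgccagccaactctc
Rnd3 promoter, chr2:51149112-51149361, minus strand: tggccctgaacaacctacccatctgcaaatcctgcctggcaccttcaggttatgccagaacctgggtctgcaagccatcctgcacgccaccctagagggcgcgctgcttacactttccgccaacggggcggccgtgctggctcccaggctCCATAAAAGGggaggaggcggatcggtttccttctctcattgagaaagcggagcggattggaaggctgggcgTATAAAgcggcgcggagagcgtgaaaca
Actc1 and Myl3 fell, but both calls were lost with quantile normalization and without a filter on low genes, as given above.
Actc1 promoter, chr2:114052876-114053125, minus strand: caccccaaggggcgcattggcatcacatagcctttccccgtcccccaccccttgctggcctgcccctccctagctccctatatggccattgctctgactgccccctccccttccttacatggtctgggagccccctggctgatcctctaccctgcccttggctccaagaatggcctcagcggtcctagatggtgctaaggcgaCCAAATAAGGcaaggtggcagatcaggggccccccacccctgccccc
Myl3 promoter, chr9:110763428-110763677, plus strand: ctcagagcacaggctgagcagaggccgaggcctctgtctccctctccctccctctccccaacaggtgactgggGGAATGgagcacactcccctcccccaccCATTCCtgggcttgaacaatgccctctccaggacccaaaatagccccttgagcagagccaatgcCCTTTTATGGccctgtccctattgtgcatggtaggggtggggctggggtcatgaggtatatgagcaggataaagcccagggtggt
The CArG box began 56 bases before the start in Cnn2, 161 in Myl9, 100 in Rnd3, 47 in Actc1 and 85 in Myl3. Rnd3 also held the TATA motif 28 bases before the start, and Myl3 held the TEAD motif once on each strand. Myl9, a light chain of nonmuscle and smooth muscle myosin, rose from 3.15 to 17.1 RPKM. The TATA motif at a like distance stood in the genes of the polymerase subunit Polr2a (33 bases) and the ligand Tgfb2 (31 bases), both of which rose.
Polr2a promoter, chr11:69758634-69758883, minus strand: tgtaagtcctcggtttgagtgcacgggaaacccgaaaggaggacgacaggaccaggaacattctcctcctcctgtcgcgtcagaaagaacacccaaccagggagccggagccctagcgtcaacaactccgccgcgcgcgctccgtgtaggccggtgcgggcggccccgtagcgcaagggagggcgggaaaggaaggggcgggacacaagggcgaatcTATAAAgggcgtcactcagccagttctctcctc
Tgfb2 promoter, chr1:186705990-186706239, minus strand: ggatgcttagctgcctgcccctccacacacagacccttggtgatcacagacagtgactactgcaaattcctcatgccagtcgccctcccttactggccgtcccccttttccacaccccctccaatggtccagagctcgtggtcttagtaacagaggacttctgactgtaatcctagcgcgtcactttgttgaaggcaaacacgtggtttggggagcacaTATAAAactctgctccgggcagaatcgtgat
A promoter of 250 bases before to 50 after the start was found for 7518 of the 9517 genes, 828 of the 1053 that rose and 612 of the 804 that fell. The CArG box was in 1.42% of all, 2.29% of those that rose and 2.29% of those that fell. The TATA motif was in 6.49%, 7.97% and 9.15%, the AP-1 motif in 4.44%, 5.19% and 5.07%, and the TEAD motif in 11.7%, 14.1% and 13.7%. These shares are descriptions and were not tested.

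Extracellular matrix genes rose in 29 of 52 tested cases, of 71 listed, and fell in 1. Lgals3, encoding galectin 3 (chromosome 14, 47367751 to 47386160, plus strand), had 0.055, 0.124 and 0.128 RPKM in Ctrl and 59.96, 23.9 and 21.9 in icKO, with icKO replicate 1 far above the other icKO samples. Postn, encoding periostin, had 0.249, 0.504 and 0.348 RPKM in Ctrl and 26.2, 24.99 and 22.04 in icKO. The fibrillar collagens Col1a1, Col1a2 and Col3a1 rose from 0.435 to 11.4 RPKM, from 0.703 to 10.8 RPKM and from 0.909 to 12.98 RPKM, while the basement membrane collagen Col4a1 started higher, at 20.1 RPKM, and rose to 86.1. Protease inhibitors Timp2 (6.26 to 123 RPKM) and Timp1 (0.448 to 4.81 RPKM), the secreted regulators Fstl3 (1.71 to 35.7 RPKM) and Sparc (10.9 to 92.1 RPKM), and Fn1 (0.66 to 5.99 RPKM), Eln (0.315 to 3.69 RPKM) and Bgn (2.06 to 19.95 RPKM) also rose. Cyr61 fell from 114 to 49.2 RPKM, a call that was lost without Ctrl replicate 2. The summed fibroblast markers were higher in icKO too, but Col1a1, Col1a2, Col3a1, Dcn and Lum among them are also members of the matrix list. Pdgfra had 0.273, 0.24 and 0.284 RPKM in Ctrl and 1.64, 0.755 and 0.402 in icKO, and Tcf21 had 0.123, 0 and 0 RPKM in Ctrl and 0.337, 0.437 and 0.611 in icKO. Of the 11 fibroblast markers 5 reached the level tested, and 3, all collagens of this same list, rose. The part of fibroblasts in these changes was not tested.

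Adhesion and growth factor signalling were mixed. Of 14 tested integrin genes, 4 rose (28.6%) and 1 fell (7.14%), beside 11.1% and 8.45% of all genes. The fibronectin receptor chain Itga5 rose from 9.61 to 48.1 RPKM and Itgav from 4.04 to 17.7 RPKM, whereas Itgb6 fell from 3.33 to 0.235 RPKM. In the TGFβ and BMP pathway, 9 of 28 rose and 1 fell. Tgfb2 had 0.752, 1.33 and 1.32 RPKM in Ctrl and 29.8, 34.9 and 24.5 in icKO, and Tgfb3 (1.16 to 7.06 RPKM) rose as well. Gdf15, a stress-induced member of the family, had 0.164, 0.288 and 0.682 RPKM in Ctrl and 2.70, 5.57 and 5.01 in icKO. The inhibitory Smad7 (2.42 to 8.68 RPKM) rose, and the coreceptor gene Tgfbr3 fell from 14.3 to 4.08 RPKM. Secreted growth factors and cytokines, 18 of 42 tested, went the other way, with 7 falls (38.9%) and 2 rises (11.1%). Angpt1, which acts on the vessel wall, fell from 5.78 to 0.446 RPKM, Fgf16 (2.58 to 0.289 RPKM), Fgf2 (1.86 to 0.349 RPKM) and the cardiotrophin gene Ctf1 (2.48 to 0.514 RPKM) fell, and the EGF receptor ligand Hbegf rose from 7.59 to 52.3 RPKM.

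Stress responses did not move as blocks. Of 19 tested p53 targets, 4 rose and 2 fell. Cdkn1a, the cell cycle inhibitor p21, had 10.1, 5.66 and 9.99 RPKM in Ctrl and 171, 181 and 144 in icKO. Phlda3 (0.518 to 14.2 RPKM), Zmat3 (1.30 to 5.64 RPKM) and the death effector Bax (4.53 to 14.7 RPKM) rose, the last with a call lost without Ctrl replicate 3, and Sesn1 (71.1 to 19.1 RPKM) and Btg2 (61.7 to 24.7 RPKM) fell. Cell death genes rose in 5 of 24 cases (20.8%) and none fell. They included the receptor Tnfrsf12a (31.1 to 168 RPKM) and the survival gene Bcl2 (0.589 to 3.76 RPKM). Of 24 integrated stress response genes, 6 rose (25%), led by the amino acid transporter Slc7a5 (from 0.807 to 16.2 RPKM), and 2 fell (8.33%). Atf4 itself was at 29.1 ± 1.75 RPKM (SD, n = 3) in Ctrl and 62.1 ± 9.62 in icKO, called as deposited but not after scaling.

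Heat shock genes rose in 6 of 30 cases (20%) and fell in 1 (3.33%), beside 11.1% and 8.45% of all genes. Hspa1b (chromosome 17, 34956436 to 34959238, minus strand) had 0.027, 0.101 and 0.104 RPKM in Ctrl and 18.3, 14.2 and 11.5 in icKO, and its near-identical neighbour Hspa1a, with which reads may be shared, had 0.35, 0.951 and 0.692 and 22.2, 17.6 and 15.1. Hsp90aa1, the inducible form of HSP90, rose from 14.3 to 164 RPKM, and Dnaja4 (29.7 to 127 RPKM), Hspb8 (161 to 557 RPKM) and Hspa2 (0.808 to 15.3 RPKM) rose. In the endoplasmic reticulum, Atf6 (18.7 to 67.6 RPKM) and Dnajb9 (12.6 to 44.9 RPKM) rose, Herpud1, which helps degrade misfolded proteins, fell from 200.1 to 31.4 RPKM, and the chaperone Hspa5 was at 168 ± 8.04 RPKM (SD, n = 3) in Ctrl and 151 ± 13.7 in icKO with no call.

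Immediate early genes, which respond within minutes to stimuli, fell in 7 of 22 cases and rose in 3. Fos had 30.9, 70.4 and 39.6 RPKM in Ctrl and 7.84, 5.74 and 3.71 in icKO. Egr1 had 22.5, 32.2 and 16.5 RPKM in Ctrl and 4.88, 2.89 and 3.60 in icKO, and Jun had 71.4, 100.4 and 64.97 and 14.8, 15.9 and 16.4. No icKO sample reached a Ctrl sample in these 3 genes, and Fos and Egr1 were highest in Ctrl replicate 2. Dusp1, Ier2, Ier5 and Zfp36 fell too (−2.54 and −3.10, −1.40 and −1.96, −1.70 and −2.26 and −1.34 and −1.90). The small Maf genes Maff (1.71 to 9.42 RPKM) and Mafk (8.70 to 44.8 RPKM) and the factor Klf4 (2.17 to 9.26 RPKM) rose.

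Natriuretic peptide and fetal isoform genes rose in 5 of 14 cases and fell in 1. Nppa, encoding atrial natriuretic peptide, had 102, 130.1 and 176 RPKM in Ctrl and 688, 1177 and 1005 in icKO. Nppb, encoding the related B-type peptide, was at 132 ± 54.7 RPKM (SD, n = 3) in Ctrl and 182 ± 45.4 in icKO and was not called, with a sign that depended on the scaling (0.55 and −0.02). Rcan1 (21.3 to 146 RPKM), a target of calcineurin, Mybpc2 (5.29 to 30.3 RPKM), Myl4 (1.36 to 10.1 RPKM) and Actn1 (3.18 to 73.3 RPKM) rose, and Myh7 fell. Muscle ubiquitin ligase, FoxO and autophagy genes gave 2 falls and 2 rises among 32 (6.25% each), below the 8.45% and 11.1% of all genes. Fbxo31 (24.7 to 4.113 RPKM) and Trim63 (84.7 to 39.4 RPKM) fell, and the call of Trim63 was lost without icKO replicate 1. Ctsl (23.00 to 88.2 RPKM) and Becn1 (11.2 to 48.7 RPKM) rose. Cell cycle and replication genes were mostly too low to test (15 of 37 tested), with 2 rises (13.3%) and 1 fall (6.67%). Pcna (5.91 to 34.6 RPKM) and Cdkn1a rose. Pold1 (1.54 to 0.55 RPKM) fell, and its call was lost with a pseudocount of 1.

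Some genes were near 0 in one group and plainly present in the other. With a Ctrl mean under 0.5 RPKM and an icKO mean of at least 5, 33 genes were induced. In the opposite direction, with an icKO mean under 0.5 and a Ctrl mean of at least 5, 18 genes were lost. Such genes pass the filter through their high group, so these numbers carry no weight as a test. Of the induced genes, 9 belong to the functional lists, namely Cnn1, Rnd1, Lgals3, Postn, Synm, Hspa1b, Slc16a3, Col1a1 and Tpm2. Outside them, Gpnmb, a glycoprotein of lysosomes and the cell surface (chromosome 6, 49036546 to 49070929, plus strand), had 0.04, 0.03 and 0.015 RPKM in Ctrl, all under the 0.0677 RPKM that 3 reads give, and 16.8, 13.9 and 9.46 in icKO. Chrnb1, a subunit of the muscle acetylcholine receptor, had 0.212, 0.318 and 0.357 RPKM in Ctrl and 12.3, 11.1 and 8.52 in icKO. Tnnt3, the troponin T of fast skeletal muscle, had 0.234, 0.059 and 0.061 and 9.33, 7.88 and 6.45. Jsrp1, a protein of the skeletal muscle triad, had 0, 0.051 and 0.212 and 6.97, 5.32 and 5.40. Of the other skeletal muscle markers, Mylpf, a fast light chain below the level tested, had 0.234, 0.176 and 0.456 RPKM in Ctrl and 1.74, 1.48 and 1.55 RPKM in icKO. The skeletal myosins Myh1, Myh2 and Myh4 stayed at or below 0.0390 RPKM in every sample. The receptor genes Epha2 (0.325 to 9.60 RPKM), Osmr (0.397 to 7.64 RPKM) and Unc5b (0.389 to 7.60 RPKM), the immune regulator Nlrc3 (0.173 to 12.9 RPKM), the keratin Krt80 (0.496 to 12.5 RPKM) and the lysosomal Litaf (0.335 to 12.7 RPKM) were induced as well, and reads of Litaf cannot be told from those of genes that overlap it on the other strand. In 8 of the 33 genes the Ctrl mean was below 3 reads.

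Among the lost genes, Kcnip2 and Mylk4 had the highest Ctrl levels. Tmod4, a tropomodulin of striated muscle, had 12.3, 10.1 and 13.5 RPKM in Ctrl and 0.144, 0.58 and 0.608 in icKO. Pfkfb1, a regulator of glycolysis, had 11.5, 11.6 and 6.87 and 0.273, 0.483 and 0.579. Smco1, a little studied membrane protein, had 9.07, 9.10 and 8.60 and 0.093, 0.377 and 0.132, and Gpr22, an orphan receptor of heart and brain, 8.96, 6.10 and 7.72 and 0.334, 0.246 and 0.417. The semaphorin receptor Plxnb1 (8.16 to 0.498 RPKM) and the dUTPase gene Dut (5.07 to 0.413 RPKM) were also lost. In none of the 18 genes was the icKO mean below the level of 3 reads.

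**Figure D5:**
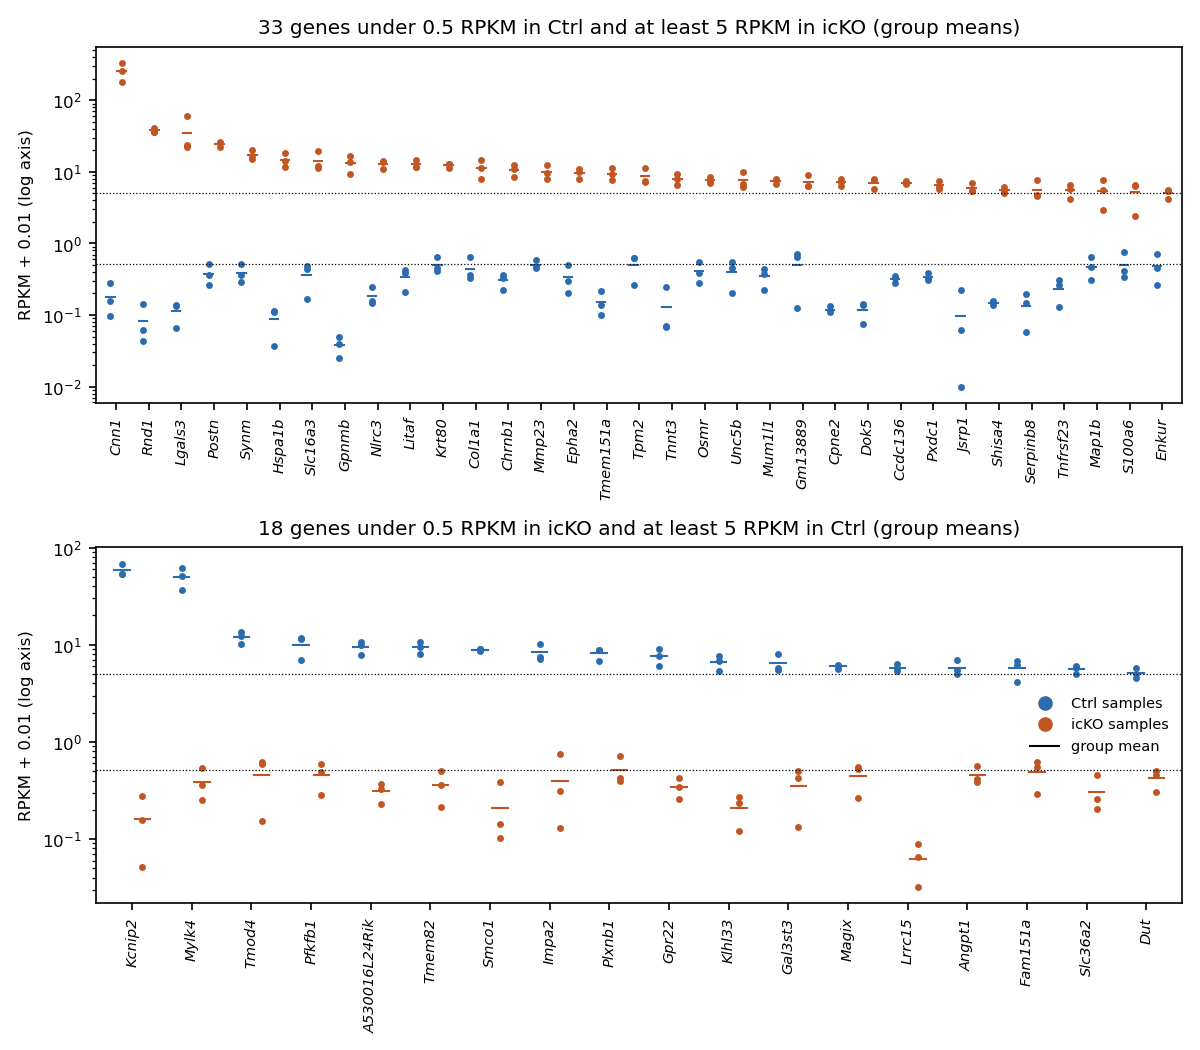
Level of the 33 induced genes (upper panel) and the 18 lost genes (lower panel) in each sample, in RPKM + 0.01 on a log axis, with group means as short lines and dotted lines at 0.5 and 5 RPKM. The genes were chosen for a call and for group means on either side of these lines, so the separation of Ctrl and icKO samples follows largely from the choice. Cnn1 reaches 330.1 RPKM in icKO replicate 1.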

How the data were processed

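RNA-seq of isolated cardiomyocytes from 3 Ctrl and 3 icKO adult hearts was analysed. The embryonic table of the series was not used here. Some list members are not reported here. The authors deposited RPKM per gene. The submitters' processing notes name cutadapt 2.6, STAR 2.5.3a, HOMER 4.11.1, DESeq2 1.12.4 and the build mm10 (GRCm38). The annotation and the use of strand in counting are not given in the sources used here, and 78 of the named genes overlap another gene. Columns with the authors' own fold changes and adjusted p values were not used. Depth, estimated from the steps between low RPKM values, was 11.97 to 17.53 M reads, and 3 reads on a 2 kb transcript gave 0.0855 to 0.125 RPKM. These floors cover counting error only.

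Genes with a mean above 1 RPKM were tested with limma 3.58.1 (R 4.3.3) on log2(RPKM + 0.1), as deposited and after median-ratio scaling, with Benjamini-Hochberg adjustment over 9517 genes. On simulated data 181, 188 and 199 of 200 genes changed by log2 1.5, 2 and 3 were recovered, with 0, 3 and 3 false calls. Far fewer genes changed there than were called here, and the typical gene was not shifted. The simulation thus does not cover the choice of scaling. Tables and plots were made with Python 3.11.15, pandas 2.3.3, numpy 2.4.6, scipy 1.17.1 and matplotlib 3.10.9. Functional lists, marker lists and members were chosen with earlier results of these data known. Named genes were drawn from Med30, the 10 largest rises and falls without overlap and up to 5 called members of each list in each direction with the largest changes. They were also drawn from each list's 3 most abundant members, the 20 most abundant genes of each group and up to 20 induced and 20 lost genes. Genes the study discusses and cell type markers were further sources. Not all genes of these sets are named, and some of the largest rises and falls are left out. Other named genes were chosen after their values were seen. Alternatives were other pseudocounts, filters, scalings, sample weights, a replicate block and leaving out each sample. Gene coordinates came from the GENCODE annotation and promoter sequences from RefSeq (GRCm38.p6).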

Additional observations from a re-analysis of the deposited data

How the results depend on the processing

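The calls depended most on the scaling and on the filter. Genes called lower were 804 in both scalings, 1511 with median-ratio scaling alone, 1341 with quantile normalization alone and 454 among genes with a mean above 5 RPKM. Genes called higher were 1053, against 2668 in the RPKM as deposited alone, 1851 with a scaling without the 20 most abundant genes and 631 above 5 RPKM. Members of the functional lists called lower numbered 254 with median-ratio scaling alone, and those called higher 254 as deposited alone. The 33 induced genes became 14 above 5 RPKM and 14 with limits of 0.25 and 5 RPKM, and the 18 lost genes became 4, 4 and, with limits of 1 and 10 RPKM, 10. These other limits were chosen after seeing the data. The difference of the most abundant genes was −14.7 percentage points for 20 genes and −18.7 for 100. Without 1 sample at a time, the lower calls ranged from 760 to 856 and the higher calls from 998 to 1126, Med30 from −1.62 to −1.11, list members lower from 131 to 152 and higher from 130 to 146, induced genes from 30 to 37, lost genes from 15 to 20, and the most abundant genes from −15.0 to −14.3 points. Med30 kept its call in all alternatives. With quantile normalization Actc1 turned to 0.068 and Tpm1 to 0.73, and with median-ratio scaling alone Casq2 had −0.14, Eef1a2 −0.28, Nppb −0.019 and Tnnc1 −0.19. The cause of these changes was not tested.

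Samples with the same replicate number correlated at 0.152, 0.0417 and 0.0452 in their deviations from the group means, so the numbers were not taken as pairs. With the replicate number as a block, 805 genes were lower and 1053 higher, and it ended the call of no named gene. With 3 samples a group, the number of samples limits the precision, and values near 0.1 RPKM rest on about 3 reads.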

Other observations

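Most called genes lay outside the functional lists, 915 of the 1053 that rose and 660 of the 804 that fell. Those named here were chosen after their values were seen. Among genes that rose, the antioxidant enzyme genes Gpx3 (36.03 to 469 RPKM), Gpx1 (22.6 to 176 RPKM) and Gsto1 (52.6 to 239 RPKM) stood beside Mfge8 (26.3 to 305 RPKM), a secreted protein that marks dying cells for uptake, the transcription factor gene Nfe2l1 (107 to 349 RPKM), which acts on proteasome genes, the ubiquitin gene Ubb (55.6 to 214 RPKM) and the proteasome subunit gene Psmd8 (28.8 to 178 RPKM). Gpx3 had 37.7, 30.3 and 40.1 RPKM in Ctrl and 505, 520.0 and 382 in icKO. Nrap, a protein of growing myofibrils, rose from 169 to 664 RPKM, and the LIM protein gene Pdlim7 from 16.1 to 163 RPKM.

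Among genes that fell, the LIM protein genes Fhl2 (634 to 52.9 RPKM) and Crip2 (493 to 64.3 RPKM) had high levels in Ctrl. Fhl2 had 660.4, 509 and 734 RPKM in Ctrl and 51.1, 60.8 and 46.9 in icKO. The redox and metal genes Txnip (314 to 38.5 RPKM) and Mt1 (256 to 40.4 RPKM) fell. Fndc5 (88.1 to 5.41 RPKM), the precursor of the secreted peptide irisin, Art1 (89.6 to 11.2 RPKM) and Asb2 (116 to 24.5 RPKM) fell as well.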
